A study of Mus musculus with 12 samples.

Results

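The S100 and annexin genes described here are 10 of the 17576 genes in the deposited expression table. They are S100a1, S100a4, S100a6, S100a10, S100a11, Anxa1, Anxa2, Anxa3, Anxa5 and Anxa6, taken as the rows whose symbol is one of these names. Total RNA was sequenced from C18-4 cells, an established line made from mouse spermatogonial stem cells. The 12 libraries form 4 groups of 3. In 8276OV, virus was used to overexpress the long noncoding RNA lncRNA8276, and 5NC was taken as its control. In 8276KD, virus was used to inhibit the same RNA, and 3NC was taken as its control. What 5NC and 3NC carry is not spelled out in the labels, and each was assigned to the arm that the design text names beside it. The 4 groups share the cell line and the strain label IRC mouse, and the labels give no vector, promoter, clone or time after infection. Since nothing in the labels ties replicates to separate cultures, the p-values capture the spread among these libraries only, and that spread may be technical. The libraries are bulk, so a larger share of cells with a transcript and more of it per cell cannot be told apart.

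S100 proteins are small calcium sensors built from a pair of EF-hand loops. When calcium binds, most of them open a surface that grips a target protein. Annexins bind the phospholipids of cell membranes when calcium rises, and several carry an S100 partner on their N-terminal tail: S100a10 on annexin A2 and S100a11 on annexin A1. Together these families take part in membrane traffic, plasma membrane repair, cell surface plasminogen activation and the link between membrane and actin. They are usually abundant in adherent mesenchymal and epithelial cells.

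The values were read as FPKM, fragments scaled by transcript length and library total, and they are printed on that scale unless called log2 fold changes. The implied depth was 10.7 to 12.8 M fragments per library, and 10929 to 11165 genes reached 1 FPKM. Pearson's r of log2(FPKM + 1) was 0.993 to 0.998 within groups and 0.951 to 0.988 between groups. The level of lncRNA8276 was not analysed here, so it offers no check of the labels. Of 13 spermatogonial and germ cell markers, 5 reached 1 FPKM in any library. These were Id4 (0.46 to 2.09), Etv5 (2.26 to 7.89), Itga6 (3.22 to 6.08), Epcam (1.22 to 2.73) and Cd9 (59.0 to 107.1), of which Itga6, Epcam and Cd9 are also made by many other cells. The other 8 were at or near 0, with highest values of 0.17 for Gfra1, 0.04 for Zbtb16, 0.03 for Ddx4 and 0.05 for Dazl. With markers on both sides, the cells are called here by the name of the line only. The 5 mesothelial and surface epithelial markers were all present and summed to 740.4 to 872.9 FPKM in 8276OV, against 1148 to 1167 in 5NC, and to 826.7 to 962.7 in 8276KD, against 628.6 to 643.7 in 3NC. Upk3b (233 to 804 FPKM) and Krt19 (177 to 374) were the largest of the 5 and Krt8 reached at most 3.22, so the sum mainly follows Upk3b and Krt19. The mesothelial sum was lower in 8276OV than in 5NC and higher in 8276KD than in 3NC. The sum of the 4 fibroblast markers moved the same way, with 386.1 to 444.4 FPKM in 8276OV, against 488.8 to 497.7 in 5NC, and 328.4 to 397.9 in 8276KD, against 272.7 to 282.6 in 3NC. So did that of the Sertoli cell markers, at 56.8 to 58.8 in 8276OV, against 64.2 to 66.6 in 5NC, and 67.6 to 73.3 in 8276KD, against 57.8 to 59.0 in 3NC. The germ cell sum went the other way, at 90.4 to 95.6 in 8276OV, against 70.6 to 77.0 in 5NC, and 95.1 to 101.2 in 8276KD, against 114.9 to 123.5 in 3NC. Cd9 made up most of this sum, so it mainly follows a gene that many other cells also make. Of the 5 Sertoli cell markers in the table, 3 reached 1 FPKM in any library, and Wt1 made up most of their sum. Sox9 reached at most 0.02 FPKM and Amh at most 0.14. The fibroblast sum was nearly all Col1a1 and Dcn, with at most 0.58 FPKM for Col1a2 and 1.4 for Pdgfra. Neither sum thus stands for its whole list of markers. The part of these sums in the results was not tested. The neutrophil marker Ly6g and the endothelial marker Cdh5 were listed at 0 in all 12 libraries, and the leukocyte marker Ptprc reached at most 0.03 FPKM. Other markers of leukocytes and endothelium were above 0. The macrophage marker Cd68 had 1.52 to 5.61 FPKM, and Csf1r reached at most 0.11. The endothelial markers Kdr and Pecam1 reached at most 0.6 and 0.25.

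Most of the 10 genes were among the abundant transcripts of these cells. By mean FPKM over all libraries, S100a6 ranked 49 of 17576, S100a11 ranked 88, S100a10 ranked 149 and Anxa2 ranked 158. Anxa1 ranked 177, Anxa3 ranked 191 and S100a4 ranked 204, followed by Anxa5 at 583, Anxa6 at 2059 and S100a1 at 3023. Even S100a1, the lowest, rested on an implied 170 to 390 fragments per library, and S100a6 on 9410 to 17350. All 10 genes passed the filter of at least 1 FPKM in at least 3 libraries.

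Under overexpression 8 of the 10 genes were higher in 8276OV than in 5NC and 1 was lower, where 30.3% of all 11360 genes tested were called higher and 44.1% lower (limma, Benjamini-Hochberg adjusted p below 0.05). The median log2 fold change of the 10 genes was 0.45, and that of all genes tested was -0.088. Under knockdown 6 were higher in 8276KD than in 3NC and 2 were lower, where 20.0% of all genes were called higher and 19.5% lower. Their median log2 fold change there was 0.26, and that of all genes was -0.0048. S100a4, S100a6, S100a10, S100a11, Anxa1 and Anxa3 were higher in both arms, so 6 of the 10, where 9.35% of all genes tested were higher in both. Overexpression and knockdown of the same RNA thus went with changes of the same sign for these 6 genes. The 10 genes were chosen with earlier results of these data known. The shares of all genes, here and below, are therefore a scale and not a test of the 2 families. Of 5 further annexin genes tested, 1 was higher and 1 lower in 8276OV, and none was called in 8276KD. Of 3 further S100 genes tested, 2 were higher and 1 lower in 8276OV, and 1 was higher and 1 lower in 8276KD.

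**Figure D1:**
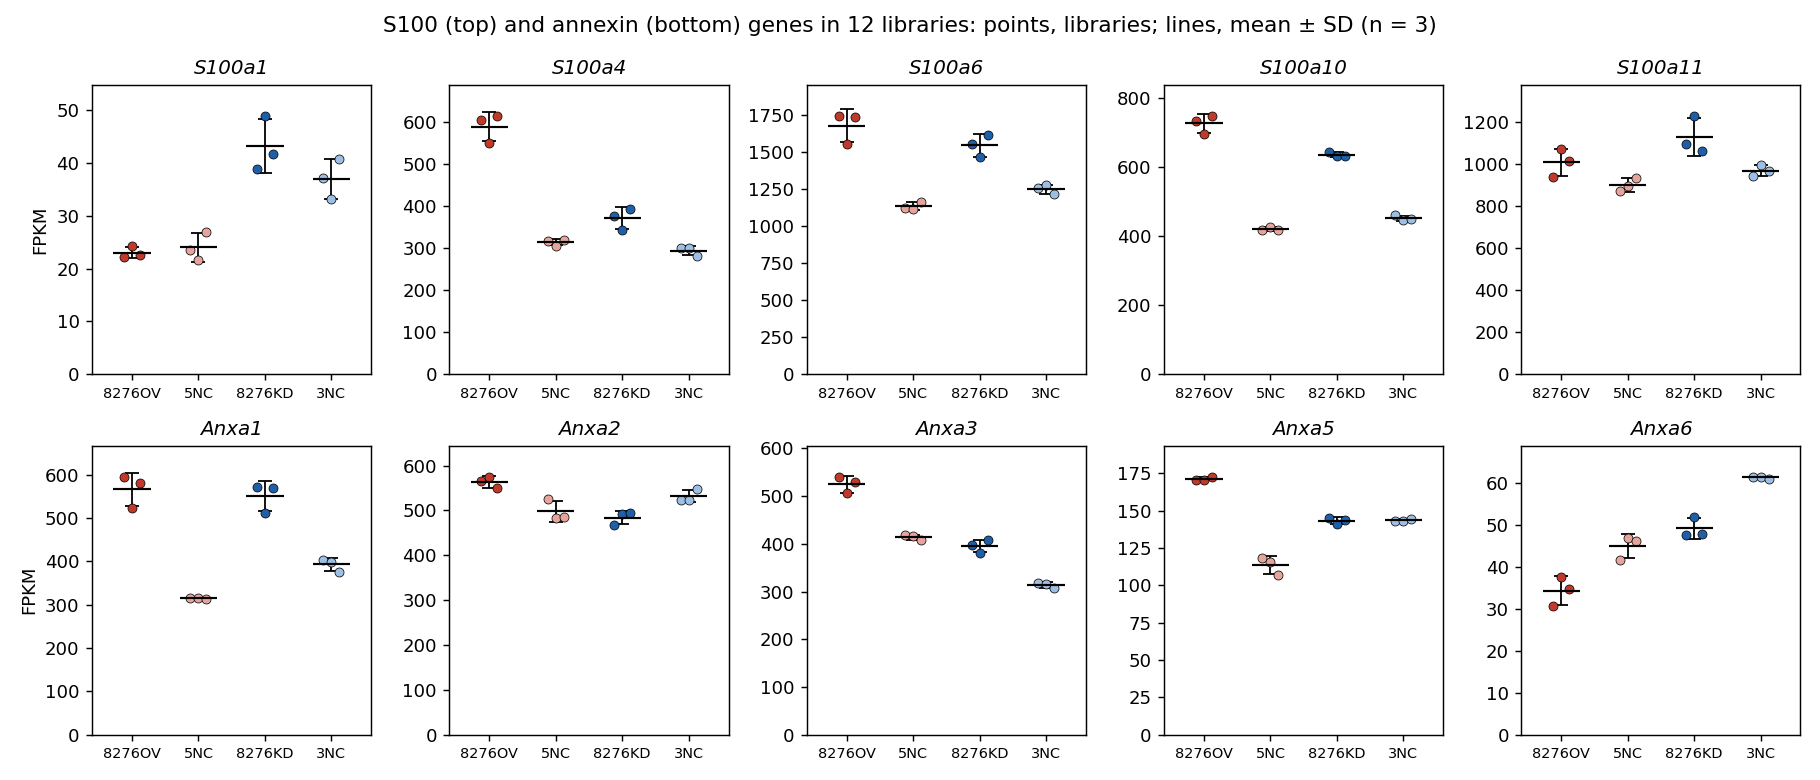
FPKM of each gene (vertical axis, linear from 0) in the 12 libraries by group (horizontal axis); points are libraries and lines are the mean ± SD of 3. For S100a4, S100a6, S100a10, Anxa1 and Anxa3 the lowest 8276OV library lies above the highest 5NC library and the lowest 8276KD library above the highest 3NC library; Anxa6 shows the opposite order in both arms.

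The promoters of S100a4, S100a6 and Anxa1, which were higher in both arms, are shown with that of Anxa2, which moved in opposite directions in the arms. The window of S100a11, also higher in both arms, was searched but is not shown. It held AP-1 and GC box matches, as did that of Anxa2. RefSeq windows of GRCm38.p6, from 250 bases before the start of the gene to 50 after it, were at hand for 7 of the 10 genes. They were searched on both strands, and the capitals mark the matches. The AP-1 site was TGANTCA, where N is any base. The letters searched for a TATA box were TATAAA, a core element that sets the start of transcription near it. The letters searched for a CCAAT box were those of its name, bound by the factor NF-Y. For a GC box, bound by factors of the Sp family, the letters were GGGCGG. Each line reads 5′ to 3′ on the strand of the gene. The S100a4 window is chr3:90603520-90603819 (plus strand), the S100a6 window chr3:90612644-90612943 (plus strand), the Anxa1 window chr19:20390622-20390921 (minus strand) and the Anxa2 window chr9:69453433-69453732 (plus strand).
S100a4 promoter: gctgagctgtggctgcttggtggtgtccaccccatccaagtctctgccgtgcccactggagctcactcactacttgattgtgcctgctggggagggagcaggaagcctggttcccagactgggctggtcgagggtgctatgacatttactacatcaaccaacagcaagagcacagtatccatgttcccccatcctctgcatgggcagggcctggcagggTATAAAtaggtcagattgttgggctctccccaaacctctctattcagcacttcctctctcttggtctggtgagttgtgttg
S100a6 promoter: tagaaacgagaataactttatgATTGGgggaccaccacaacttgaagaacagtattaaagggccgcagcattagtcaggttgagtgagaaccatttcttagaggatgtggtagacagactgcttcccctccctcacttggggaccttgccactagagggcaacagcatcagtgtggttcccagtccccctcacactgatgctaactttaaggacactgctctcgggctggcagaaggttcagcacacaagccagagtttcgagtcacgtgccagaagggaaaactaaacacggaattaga
Anxa1 promoter: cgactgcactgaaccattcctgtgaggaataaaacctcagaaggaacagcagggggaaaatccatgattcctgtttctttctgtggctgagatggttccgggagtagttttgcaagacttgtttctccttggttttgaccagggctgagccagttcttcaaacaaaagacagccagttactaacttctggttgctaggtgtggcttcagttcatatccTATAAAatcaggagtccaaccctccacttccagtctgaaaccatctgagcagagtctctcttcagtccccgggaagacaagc
Anxa2 promoter: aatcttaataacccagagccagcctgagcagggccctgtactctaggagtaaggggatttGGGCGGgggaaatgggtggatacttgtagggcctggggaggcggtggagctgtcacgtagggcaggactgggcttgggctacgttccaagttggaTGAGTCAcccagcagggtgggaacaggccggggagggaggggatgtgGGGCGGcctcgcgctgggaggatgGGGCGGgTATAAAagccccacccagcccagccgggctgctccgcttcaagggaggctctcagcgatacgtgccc
The S100a4 and Anxa1 windows held a TATA box 31 and 32 bases before the start, and the Anxa2 window held one 17 bases before it. TATAAA was found in 3 of the 7 windows and in 13.6% of all 32851 promoter windows. The S100a6 window held none, and its only match was a CCAAT box on the opposite strand. AP-1 letters were found in 2 of the 7 windows, those of Anxa2 and S100a11, and in 7.81% of all windows. GC boxes were found in the same 2 windows and in 35.7% of all windows, and a CCAAT box in 1 of 7 against 37.4%. No match overlapped a match of another motif. A match describes letters in a window and is not evidence of a bound factor.

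S100a4, known as metastasin, binds the heavy chain of nonmuscle myosin and is a usual marker of motile mesenchymal cells. It lies at chr3:90603770-90606045 (plus strand), downstream of the TATA box marked in its promoter line. It had 604, 549 and 615 FPKM in 8276OV, against 316, 305 and 320.1 in 5NC. The 8276OV libraries were all far above the 5NC libraries, and the second 8276OV library was the lowest of its group. The log2 fold change was 0.91 ± 0.056 (SE; limma adjusted p = 6.97e-08), the largest rise among the 10 genes. Under knockdown S100a4 had 378, 343 and 394 FPKM in 8276KD, against 299.8, 301 and 281 in 3NC. The groups again did not overlap, with a log2 fold change of 0.33 ± 0.056 (limma adjusted p = 3.96e-04). The overexpression effect exceeded the knockdown effect by 0.57 ± 0.079 on the log2 scale (limma adjusted p = 5.87e-05). The order of group means was 8276OV, 8276KD, 5NC and 3NC. No difference between the 2 controls was called (adjusted p = 0.164, limma), although every 5NC library lay above every 3NC library. A model gene on the same strand, Gm42674, shares 302 exon bases with S100a4 and 56.3% of its 50-base words, so reads of the pair could be split or merged by the counting.

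S100a6, or calcyclin, binds the ubiquitin ligase adaptor Cacybp. It lies at chr3:90612894-90614414, 6848 bases beyond the end of S100a4. It had 1744, 1551 and 1739 FPKM in 8276OV, against 1124, 1115 and 1163 in 5NC. It had 1557, 1465 and 1615 FPKM in 8276KD, against 1257, 1276 and 1216 in 3NC. Each manipulated library was above every library of its control, and the second library was the lowest in both manipulated groups. The log2 fold change was 0.56 ± 0.049 for overexpression (limma adjusted p = 6.25e-07) and 0.31 ± 0.049 for knockdown (limma adjusted p = 3.13e-04). The effect of overexpression was larger by 0.26 ± 0.070 (limma adjusted p = 0.00623), a difference that was 0.12 and not called after quantile normalization (adjusted p = 0.227, limma).

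S100a10 is the light chain of the annexin A2 complex and an S100 protein that has lost calcium binding. It lies at chr3:93555117-93564645. It had 734, 696 and 747 FPKM in 8276OV, against 417, 427 and 418 in 5NC. It had 644, 631 and 631 FPKM in 8276KD, against 459.6, 445 and 449 in 3NC. All 6 manipulated libraries were above all 6 control libraries. The log2 fold change was 0.78 ± 0.036 for overexpression (limma adjusted p = 1.68e-08) and 0.49 ± 0.036 for knockdown (limma adjusted p = 3.18e-07). Of all genes tested, 63 (0.555%) had a larger log2 fold change than S100a10 under overexpression and 317 (2.79%) under knockdown. The overexpression effect was larger by 0.29 ± 0.050 (limma adjusted p = 3.04e-04).

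Anxa2 encodes the annexin that S100a10 binds, a cell surface receptor of plasminogen and tissue plasminogen activator. It lies at chr9:69453683-69491792. It had 566, 575 and 550.0 FPKM in 8276OV, against 525, 483 and 486 in 5NC. The groups did not overlap, and the log2 fold change was 0.18 ± 0.042 (limma adjusted p = 0.00159). Under knockdown it had 467, 492 and 494 FPKM in 8276KD, against 523, 524 and 547 in 3NC. Here the 8276KD libraries were the lower ones, with a log2 fold change of -0.13 ± 0.042 (limma adjusted p = 0.0219). The 2 effects differed by 0.31 ± 0.059 (limma adjusted p = 5.92e-04). The rise in 8276OV was 0.0057 after quantile normalization (limma adjusted p = 0.924), and the fall in 8276KD was not called without the first 8276KD library (adjusted p = 0.0865, limma) or without the third 3NC library (adjusted p = 0.0950, limma). An antisense gene, Gm16144, shares 98 exon bases with Anxa2, and whether the counting used strand is unknown here.

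Since S100a10 and annexin A2 act as a complex, the ratio of their transcripts was read in each library. S100a10 over Anxa2 was 1.30, 1.21 and 1.36 in 8276OV, against 0.794, 0.885 and 0.860 in 5NC. It was 1.38, 1.28 and 1.28 in 8276KD, against 0.878, 0.850 and 0.820 in 3NC. S100a10 was above Anxa2 in every manipulated library and below it in every control library. The mean ratio was 1.29 ± 0.075 in 8276OV and 0.846 ± 0.047 in 5NC, and 1.31 ± 0.057 in 8276KD and 0.850 ± 0.029 in 3NC (SD, n = 3 each). An exact two-sided permutation test gave p = 0.1 in each arm, the smallest that 3 libraries against 3 allow. The ratio of Anxa1 to Anxa2 had the same order, with 1.01 in 8276OV and 0.633 in 5NC, and 1.14 in 8276KD and 0.740 in 3NC. Both ratios share Anxa2, so they are not independent of each other. S100a4 over S100a6 was 0.351 ± 0.0041 in 8276OV and 0.277 ± 0.0041 in 5NC, without overlap (exact two-sided permutation p = 0.1, n = 3 each). In the knockdown arm it was 0.240 ± 0.0052 in 8276KD and 0.235 ± 0.0037 in 3NC, and the libraries overlapped (exact two-sided permutation p = 0.3, n = 3 each). These are ratios of FPKM, so they compare levels per transcript length.

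**Figure D2:**
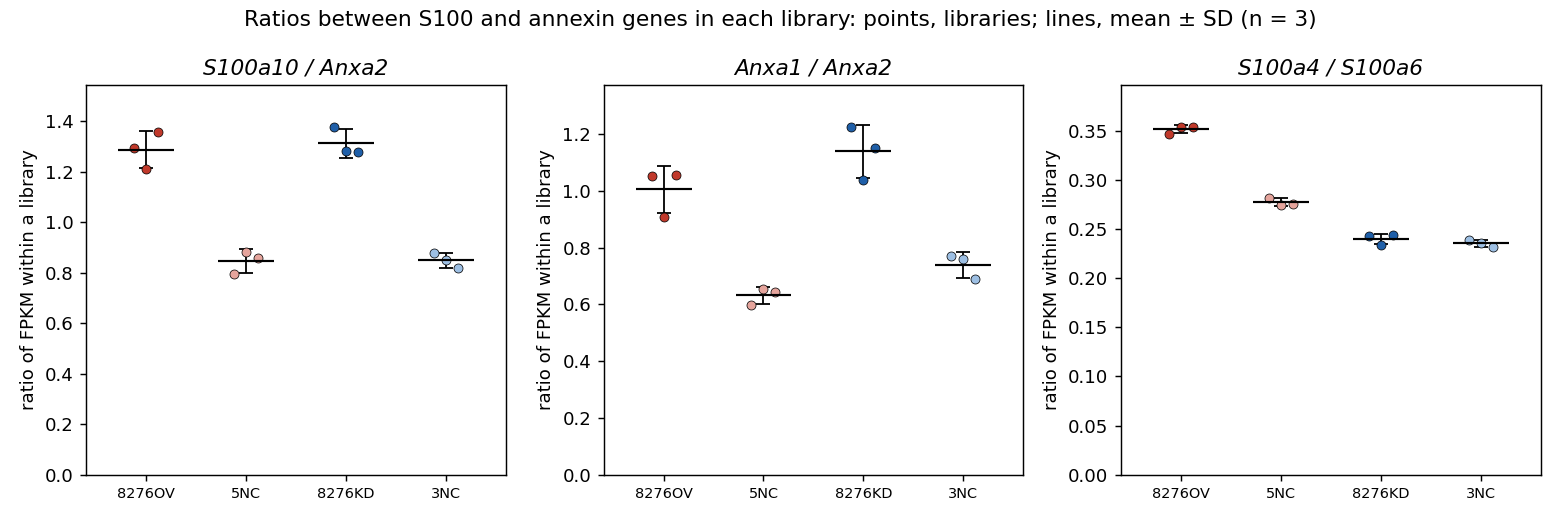
Ratio of FPKM of a pair of genes within a library (vertical axis, from 0) by group (horizontal axis); points are libraries and lines the mean ± SD of 3. S100a10 / Anxa2 lies above 1 in the 6 manipulated libraries and below 1 in the 6 control libraries, while S100a4 / S100a6 is set apart in 8276OV, at 0.351 on average, against 0.277 in 5NC.

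Anxa1, a glucocorticoid-induced annexin that inhibits phospholipase A2 and is a ligand of formyl peptide receptors, lies at chr19:20373434-20390671 (minus strand). It had 595, 523 and 581 FPKM in 8276OV, against 315, 316 and 313 in 5NC. It had 572, 511 and 569 FPKM in 8276KD, against 404, 398 and 376 in 3NC. The manipulated libraries were all above the control libraries, and the second library was again the lowest of 8276OV and of 8276KD. The log2 fold change was 0.84 ± 0.054 for overexpression (limma adjusted p = 7.93e-08) and 0.49 ± 0.054 for knockdown (limma adjusted p = 1.59e-05). No difference between the 2 manipulated groups was called (0.040 ± 0.054 for 8276OV against 8276KD, limma adjusted p = 0.529). The controls differed, with 5NC below 3NC by a log2 fold change of -0.32 ± 0.054 (limma adjusted p = 2.35e-04). The difference between the effects, 0.36 ± 0.077 (limma adjusted p = 0.00140), contains that difference of controls.

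S100a11, which binds the N-terminal tail of annexin A1, lies at chr3:93520496-93526288, 28828 bases before S100a10. It had 939, 1067 and 1013 FPKM in 8276OV, against 871, 893 and 934 in 5NC. It had 1092, 1227 and 1059.8 FPKM in 8276KD, against 939.6, 994 and 965 in 3NC. The libraries of neither arm overlapped, although those of 8276OV and 5NC came close. The second library was the highest of both manipulated groups, the reverse of S100a4, S100a6 and Anxa1. The rises were small, 0.16 ± 0.058 for overexpression (limma adjusted p = 0.0213) and 0.22 ± 0.058 for knockdown (limma adjusted p = 0.00888), and did not differ from each other beyond error (-0.057 ± 0.081, limma adjusted p = 0.556). The overexpression call was lost without any of 4 libraries, with limma adjusted p of 0.0760 without the first 5NC library, 0.0539 without the second, 0.0902 without the second 8276OV library and 0.0556 without the third. S100a11 shares 41.1% of its 50-base words with the gene model Gm12854, so its reads could be split between copies.

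Anxa3, a membrane-binding annexin known from myeloid cells, lies at chr5:96793385-96845968. It had 541, 506 and 529 FPKM in 8276OV, against 418, 416 and 407 in 5NC. It had 397, 381 and 407 FPKM in 8276KD, against 317, 316 and 308 in 3NC. Neither arm overlapped its control, and the effects were 0.34 ± 0.038 for overexpression (limma adjusted p = 3.67e-06) and 0.33 ± 0.038 for knockdown (limma adjusted p = 1.97e-05). Their difference was 0.010 ± 0.054 on the log2 scale (limma adjusted p = 0.876). Anxa3 was also the 1 gene of the 10 that was higher in 5NC than in 3NC, by 0.40 ± 0.038 (limma adjusted p = 1.24e-06). The order of means was thus 8276OV, 5NC, 8276KD and 3NC, and 5NC and 8276KD did not differ beyond their spread (adjusted p = 0.161, limma). The gene model Gm42603 shares 112 exon bases with Anxa3 on the same strand.

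Anxa5, the phosphatidylserine-binding annexin used as a probe of dying cells, lies at chr3:36448923-36475887 (minus strand). It had 171, 171 and 173 FPKM in 8276OV, against 118, 116 and 107 in 5NC. It had 145, 141 and 144 FPKM in 8276KD, against 143, 143 and 144 in 3NC. The 8276OV libraries stood above all others, and the knockdown libraries overlapped their control. The log2 fold change was 0.59 ± 0.040 for overexpression (limma adjusted p = 1.24e-07) and -0.0025 ± 0.040 for knockdown (limma adjusted p = 0.969). The difference between the effects was 0.59 ± 0.057 (limma adjusted p = 4.38e-06), the largest among the 10 genes. The controls differed too, with 5NC below 3NC by a log2 fold change of -0.34 ± 0.040 (limma adjusted p = 9.84e-06). Against 3NC, 8276OV was higher by 0.25 on the log2 scale.

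Anxa6, an annexin with a duplicated core that recruits the Ras GTPase activator Rasa1 to membranes, lies at chr11:54978953-55033471 (minus strand). It had 30.8, 37.6 and 34.9 FPKM in 8276OV, against 41.6, 46.9 and 46.3 in 5NC. It had 47.8, 52.0 and 47.9 FPKM in 8276KD, against 61.6, 61.4 and 61.1 in 3NC. The manipulated libraries were all below their controls in both arms, without overlap. Anxa6 was the only gene of the 10 that was lower in both arms, with log2 fold changes of -0.38 ± 0.067 for overexpression (limma adjusted p = 1.86e-04) and -0.31 ± 0.067 for knockdown (limma adjusted p = 0.00250). After correction for GC content the fall in 8276OV was -0.022 (limma adjusted p = 0.709), while that in 8276KD was -0.27 (limma adjusted p = 2.27e-04). The lower level in 8276KD held only against 3NC: against 5NC the log2 fold change was 0.13 (limma adjusted p = 0.118).

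S100a1, a regulator of the calcium pump Atp2a2 in muscle, lies at chr3:90511034-90514330 (minus strand). It had 22.2, 24.3 and 22.6 FPKM in 8276OV, against 23.6, 21.6 and 26.9 in 5NC. It had 39.0, 48.9 and 41.8 FPKM in 8276KD, against 37.1, 33.1 and 40.7 in 3NC. Libraries overlapped in both arms, and neither change passed the test (-0.054 ± 0.095, limma adjusted p = 0.619, for overexpression and 0.22 ± 0.095, limma adjusted p = 0.0840, for knockdown). The knockdown value passed the threshold without the first 8276KD library (0.29, limma adjusted p = 0.0429), without the third 3NC library (0.29, limma adjusted p = 0.0488) and after GC correction (0.26, limma adjusted p = 0.0116). The larger step was between the arms: both groups of the overexpression arm lay below both groups of the knockdown arm. Between the controls, 5NC was lower than 3NC by a log2 fold change of -0.60 ± 0.095 (limma adjusted p = 1.17e-04). The RefSeq spans of S100a1 and S100a13, which lie on the same stretch of chromosome 3, share 98 bases.

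**Figure D3:**
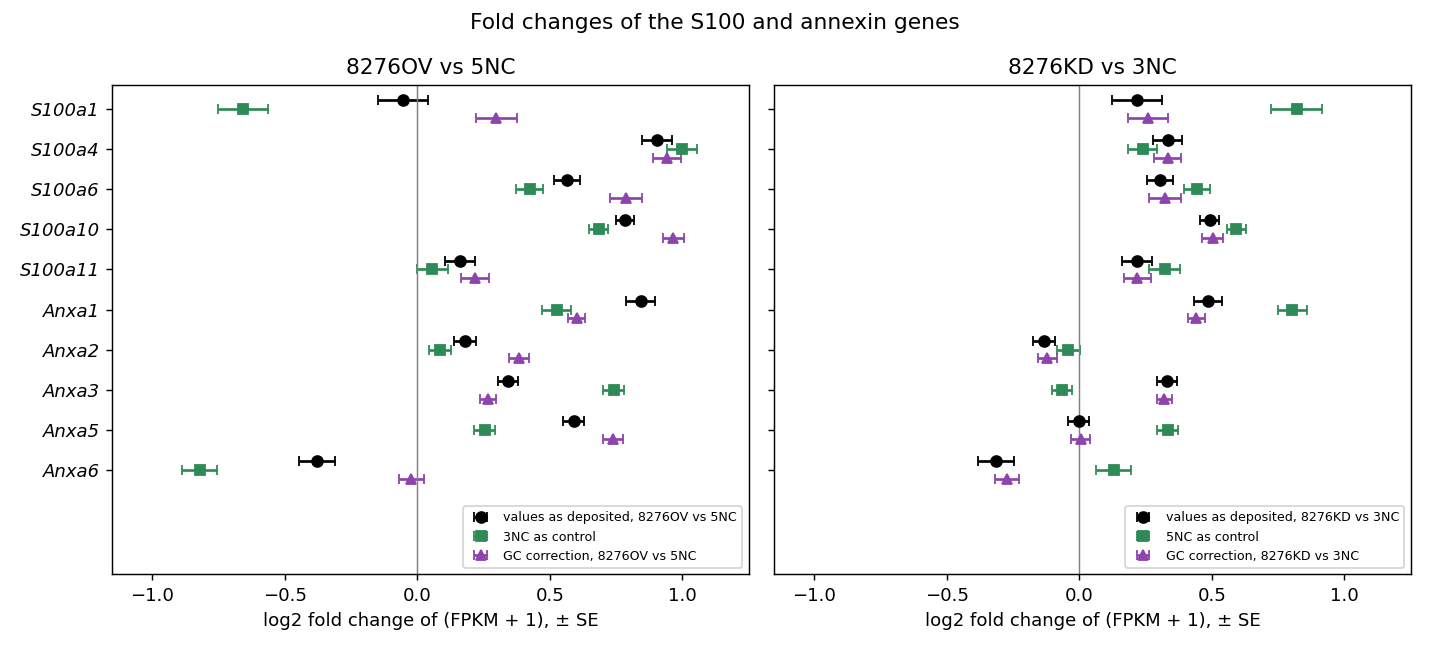
Log2 fold change of FPKM + 1 (horizontal axis, ± SE) of each gene (vertical axis) for 8276OV against 5NC (left) and 8276KD against 3NC (right); circles use the values as deposited, squares the other control, triangles a correction for GC content. S100a4, S100a6, S100a10 and Anxa1 lie to the right of 0 for all 3 markers in both panels, whereas Anxa6 in the overexpression arm moves to -0.022 after GC correction and S100a1 to 0.30.

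The control viruses were also compared with each other. In 5NC against 3NC, 1 gene was higher, where 30.6% of all genes tested were, and 6 were lower, where 25.9% were (limma, Benjamini-Hochberg). The 6 were S100a1, S100a6, S100a10, Anxa1, Anxa5 and Anxa6. The count of lower genes was 4 after quantile normalization and without the first 3NC library, and 8 after GC correction, which added S100a11 (-0.14, limma adjusted p = 0.0303) and Anxa2 (-0.14, limma adjusted p = 0.00306). The falls of S100a6 (-0.14 ± 0.049, limma adjusted p = 0.0272) and S100a10 (-0.10 ± 0.036, limma adjusted p = 0.0281) were small beside their rises in 8276OV. After quantile normalization neither was called, at -0.029 for S100a6 (limma adjusted p = 0.690) and -0.035 for S100a10 (limma adjusted p = 0.450). S100a6 was no longer called without the first or second 3NC library or the first or second 5NC library (limma adjusted p = 0.0699 to 0.0901), and S100a10 without the first or the third library of either control (limma adjusted p = 0.0583 to 0.104). Without the first 5NC library, Anxa2 was called lower in 5NC (-0.13, limma adjusted p = 0.0193). Because the control can decide a call, each arm was also set against the other control. The comparisons that share a control are not independent.

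Set against 3NC, 8276OV was still higher for S100a4 (1.0), S100a6 (0.42), S100a10 (0.68), Anxa1 (0.53), Anxa3 (0.74) and Anxa5 (0.25), each on the log2 scale. That makes 6 genes higher, where 33.5% of all genes were, and 2 lower, S100a1 (-0.66) and Anxa6 (-0.82), where 41.7% were. S100a11 (0.057, adjusted p = 0.377) and Anxa2 (0.085, adjusted p = 0.0800) did not pass limma's test. Set against 5NC, 8276KD was higher for 7 genes, where 24.7% of all genes were: S100a1 (0.82), S100a4 (0.24), S100a6 (0.45), S100a10 (0.59), S100a11 (0.32), Anxa1 (0.80) and Anxa5 (0.33). Anxa3 (-0.066, limma adjusted p = 0.161), which rose against 3NC, did not pass against 5NC, and no gene of the 10 was called lower by limma, where 30.5% of all genes were (0 also at an unadjusted p under 0.05). S100a4, S100a6, S100a10 and Anxa1 were thus higher in both manipulated groups against either control.

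The same 4 genes were called higher in both arms under each of 9 alternatives of scaling, filter, GC correction, block and control. Their overexpression effects ranged from 0.79 to 1.0 for S100a4, 0.42 to 0.79 for S100a6, 0.65 to 0.97 for S100a10 and 0.53 to 0.94 for Anxa1. Their knockdown effects ranged from 0.19 to 0.34 for S100a4, 0.31 to 0.45 for S100a6, 0.44 to 0.59 for S100a10 and 0.37 to 0.80 for Anxa1. GC content moved with the overexpression comparison across the table, with a median log2 fold change of 0.39 in the lowest of 10 bins of transcript GC content and -0.66 in the highest. The transcripts of the 10 genes run from 43.6% GC for Anxa1 to 54.0% for Anxa6. After the correction the overexpression effect was 0.60 for Anxa1 and 0.97 for S100a10, and S100a1 was called higher (0.30, limma adjusted p = 0.00414). Of the calls in 8276OV against 5NC, 40.8% were higher as deposited, 52.6% after quantile normalization, 49.6% after median-of-ratios scaling and 50.8% after GC correction. Quantile normalization moved the median of all genes to 0.029.

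The effect of overexpression differed from that of knockdown for 6 of the 10 genes, all with the larger value under overexpression, where 24.5% of all genes were called that way (limma, Benjamini-Hochberg). They were S100a4, S100a6, S100a10, Anxa1, Anxa2 and Anxa5. This difference contains that of the controls, and 5NC was below 3NC for S100a6, S100a10, Anxa1 and Anxa5. Directly, 8276OV exceeded 8276KD by 0.26 for Anxa5 and by 0.040 for Anxa1, the latter not called (limma adjusted p = 0.529). S100a6 was not called after quantile normalization, and Anxa6 was called after GC correction (0.25, limma adjusted p = 0.00583). None of the 10 genes was called in the other direction with values as deposited, where 36.2% of all genes were. At an unadjusted p under 0.05 the count in the other direction was also 0, and the value furthest that way was that of S100a1 (-0.27 ± 0.13, limma adjusted p = 0.0939). S100a1 was called in that direction without the first 8276KD, the second 5NC or the third 3NC library (-0.34 in each case, limma adjusted p = 0.0420 to 0.0475). In sum per library, the 5 S100 genes made up 0.727% of the column total in 8276OV and 0.520% in 5NC, and 0.675% in 8276KD and 0.541% in 3NC. The 5 annexins made up 0.336% in 8276OV and 0.258% in 5NC, and 0.295% in 8276KD and 0.261% in 3NC. The libraries of each arm did not overlap in either sum (exact two-sided permutation p = 0.1 each, n = 3).

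Of the 10 genes, 6 lie on chromosome 3, and the S100 genes there stand in 2 windows. Beside S100a4 and S100a6, the tested neighbours of the first window moved in both directions. S100a13, which takes part in the release of fibroblast growth factor 1, averaged 29.9 ± 1.9 FPKM in 8276OV and 19.0 ± 1.1 in 5NC, and 31.4 ± 0.74 in 8276KD and 23.3 ± 1.0 in 3NC. It rose in both arms, by log2 fold changes of 0.63 and 0.42 (limma adjusted p = 8.70e-07 and 1.02e-04). S100a16 averaged 1.55 ± 0.13 FPKM in 8276OV and 4.41 ± 0.82 in 5NC, and 1.5 ± 0.062 in 8276KD and 3.48 ± 0.29 in 3NC. It fell in both arms, by log2 fold changes of -1.08 and -0.84 (limma adjusted p = 6.55e-07 and 1.80e-05). S100a3 rose under overexpression (0.62 ± 0.17, limma adjusted p = 0.00447) and had a log2 fold change of -0.022 under knockdown (limma adjusted p = 0.931). Against 3NC, S100a3 in 8276OV had a log2 fold change of 0.097 (limma adjusted p = 0.613). These 3 were the tested ones of 11 further S100 genes listed, 7 of which were in the table. S100a8 and S100a9 were not analysed here.

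**Figure D4:**
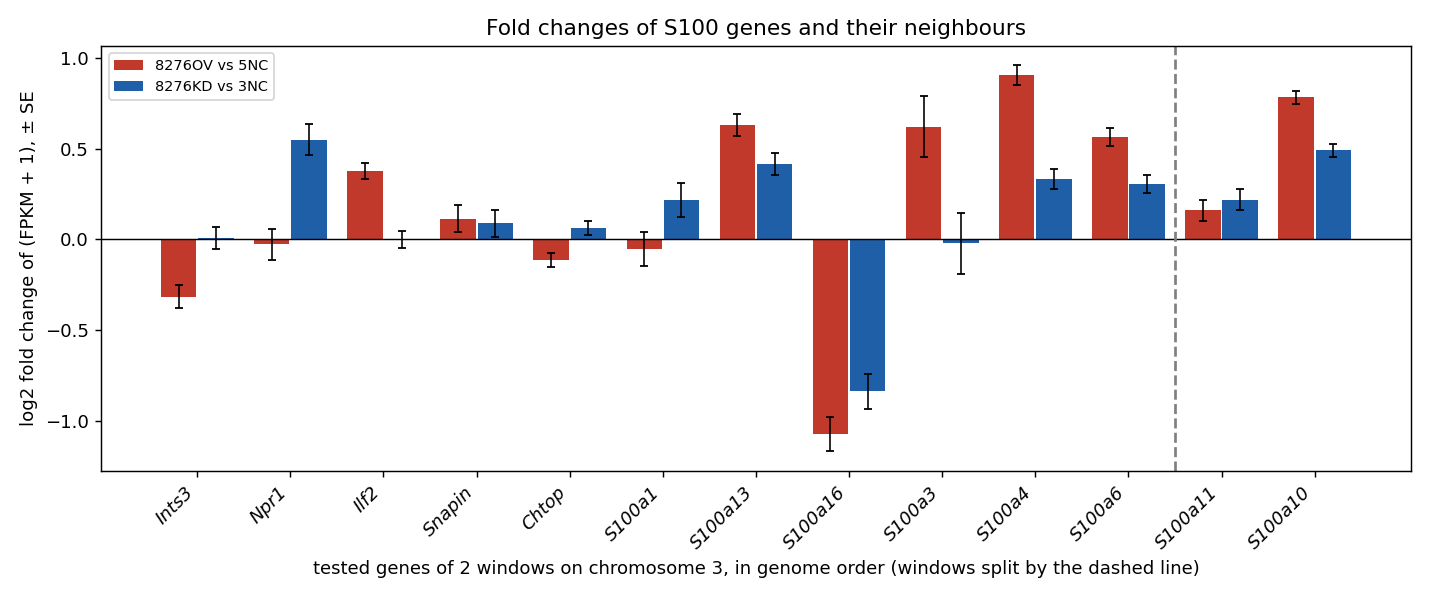
Log2 fold change of FPKM + 1 (vertical axis, bars ± SE) of the tested genes within 100000 bases of S100a1 to S100a6 (left of the dashed line) and of S100a11 to S100a10 (right of it), in genome order along the horizontal axis. Red bars are 8276OV against 5NC and blue bars 8276KD against 3NC. S100a13, S100a4, S100a6 and S100a10 point up in both colours and S100a16 points down in both, at -1.08 and -0.84.

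Of 7 further annexin genes, 5 were tested. In 8276OV against 5NC, 1 rose and 1 fell, where 30.3% and 44.1% of all genes tested did. The median log2 fold change of the 5 was -0.026. Anxa4, a membrane-binding annexin of epithelia, averaged 89.98 ± 1.9 FPKM in 8276OV and 61.6 ± 1.1 in 5NC, a log2 fold change of 0.54 ± 0.040 (limma adjusted p = 1.96e-07). Anxa11, which tethers RNA granules to lysosomes, averaged 11.5 ± 1.3 FPKM in 8276OV and 17.6 ± 1.4 in 5NC, a log2 fold change of -0.57 ± 0.078 (limma adjusted p = 1.86e-05). Under knockdown none of the 5 passed limma's test in either direction, where 20.0% of all genes tested were higher and 19.5% lower. At an unadjusted p under 0.05, 1 of the 5 was higher and 0 were lower, and their median was 0.026.

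Among 11 listed binding partners and receptors of S100 proteins, 4 rose and 5 fell in 8276OV, and 3 rose and 1 fell in 8276KD, with medians of -0.066 and -0.029. These counts are to be read against the shares of all genes tested, 30.3% higher and 44.1% lower in 8276OV and 20.0% higher and 19.5% lower in 8276KD, and in 8276OV they were near those shares. Ahnak, the giant scaffold that the S100a10 and annexin A2 complex holds at the membrane, rose in both arms. It averaged 58.8 ± 2.1 FPKM in 8276OV and 45.7 ± 1.5 in 5NC, and 54.1 ± 2.7 in 8276KD and 36.5 ± 1.1 in 3NC. The log2 fold changes were 0.35 ± 0.049 (limma adjusted p = 2.25e-05) and 0.55 ± 0.049 (limma adjusted p = 2.10e-06). Ahnak was also higher in 5NC than in 3NC, by 0.32. The S100a6 partner Cacybp rose by 0.69 ± 0.062 in 8276OV (limma adjusted p = 6.99e-07) and by 0.19 ± 0.062 in 8276KD (limma adjusted p = 0.0279). Sugt1, a cochaperone that binds S100a6, rose by 0.52 ± 0.053 in 8276OV (limma adjusted p = 1.93e-06). Trp53, the tumour suppressor that S100a4 binds, fell by 0.59 ± 0.086 on the log2 scale in 8276OV (limma adjusted p = 3.42e-05). The cochaperone Stip1 fell by 0.33 ± 0.054 in 8276KD (limma adjusted p = 3.60e-04). Against 5NC, Stip1 in 8276KD had a log2 fold change of 0.097 (limma adjusted p = 0.148).

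Of 8 listed annexin partners and receptors 6 were tested, and 4 rose and 1 fell in 8276OV, while 2 rose in 8276KD. The lists share genes, so their counts are not independent. Ahnak was also listed with the S100 partners and Plgrkt with the plasminogen system. Pdcd6 was also listed with the membrane repair genes and the other EF-hand proteins. Of all genes tested, 30.3% rose and 44.1% fell in 8276OV, and 20.0% rose and 19.5% fell in 8276KD. The median log2 fold changes of the 6 were 0.36 and -0.0072. The formyl peptide receptors through which secreted annexin A1 signals were near 0, with a highest value of 0.21 FPKM for Fpr1 and 0.06 for Fpr2. Pla2g4a, the phospholipase A2 that annexin A1 inhibits, averaged 15.6 ± 1.3 FPKM in 8276OV and 11.8 ± 0.92 in 5NC (0.38 ± 0.073, limma adjusted p = 3.47e-04). Against 3NC, its log2 fold change in 8276OV was 0.066 (limma adjusted p = 0.421). Pdcd6, a calcium sensor of membrane repair, rose by 0.45 ± 0.046 in 8276OV (limma adjusted p = 1.93e-06). Src, the kinase that phosphorylates annexin A2, fell by 0.47 ± 0.068 on the log2 scale in 8276OV (limma adjusted p = 3.00e-05).

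In the plasminogen system, for which annexin A2 and S100a10 form a surface receptor, 4 of 8 genes in the table were tested, with median log2 fold changes of 0.060 in 8276OV and 0.25 in 8276KD. Plasminogen itself (Plg) reached at most 0.03 FPKM and urokinase (Plau) at most 0.2. Tissue plasminogen activator, Plat, averaged 33.0 ± 0.87 FPKM in 8276OV and 26.7 ± 1.5 in 5NC, and 21.0 ± 0.35 in 8276KD and 17.3 ± 0.84 in 3NC. It rose by 0.30 ± 0.053 and 0.26 ± 0.053 (limma adjusted p = 1.90e-04 and 0.00157). Plat was also higher in 5NC than in 3NC, by 0.60 (limma adjusted p = 5.87e-07). Against 5NC, 8276KD was lower, with a log2 fold change of -0.33 (limma adjusted p = 1.50e-04). The plasminogen receptor Plgrkt also rose in both arms, by 0.36 ± 0.079 and 0.33 ± 0.079 (limma adjusted p = 0.00104 and 0.00488). Against 5NC, Plgrkt in 8276KD had a log2 fold change of 0.078 (limma adjusted p = 0.423). The urokinase receptor Plaur fell by 0.59 ± 0.11 on the log2 scale in 8276OV (limma adjusted p = 2.49e-04).

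The profile of each gene over the 12 libraries was compared within a set of 8546 genes, itself included, of mean FPKM of at least 5. Symbols that are clone names were left out. The measure was the root mean square difference of centred log2(FPKM + 1). Nearest to S100a10 were Psma4 (0.056), Sf3b6 (0.060) and Lsm5 (0.063), and Anxa1 ranked 42. Nearest to Anxa1 were Snrpd1 (0.057), Prdx1 (0.062) and Usmg5 (0.069), and S100a10 ranked 25. S100a4 had no equally close neighbour, with Zfp992 at 0.098, Impact at 0.098 and Fkbp3 at 0.103. S100a6 was nearest to Eif1ax (0.041), Eif2s1 (0.046) and Srp9 (0.047). Among the annexins, Anxa5 had Ttc1 (0.048), its relative Anxa4 (0.050) and Umad1 (0.053) as nearest genes, and Anxa6 had Bcl2l1 (0.027), Cherp (0.057) and Prkcd (0.059). Anxa3 was nearest to Nceh1 (0.038), H2afz (0.039) and Mcc (0.040), and Anxa2 to Eif3l (0.043), Nrd1 (0.043) and Cpsf3 (0.047). S100a11 was nearest to Psmd7 (0.064), Xpa (0.066) and Ccnb2 (0.067), and S100a1 to Creld2 (0.096), Jpt1 (0.107) and Rbpms2 (0.111). These distances describe likeness over libraries that share their groups and depth, and no test was made of them.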

How the data were processed

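Total RNA of C18-4 cells was sequenced in 12 libraries, and the table analysed gives 1 value per gene and library. The deposited values are FPKM, scaled by the authors for transcript length and library total. This was read from the values, since no label or header names the unit: low values shrink as transcripts get longer (rho = -0.752, Spearman, 980 genes), and column sums run from 533099 to 561940. TPM cannot be told apart. The submitters' processing notes name mm10 as the build; aligner, quantifier, annotation and strand handling are not given there. Implied depth was taken from genes above 0 in 1 library only, whose value was assumed to be 1 fragment on their longest transcript. The median over 47 to 88 such genes per library was used. Depths and implied fragments rest on that assumption and cover counting error only.

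The 11360 genes with 1 FPKM or more in 3 or more libraries were analysed as log2(FPKM + 1), where the pseudocount of 1 understates changes of low genes. A joint limma 3.58.1 fit (R 4.3.3, trend and robust eBayes, a mean per group) gave standard errors and two-sided p-values, adjusted by Benjamini-Hochberg over the whole table and called below 0.05. For the GC correction, each library's deviations were fitted on transcript GC content (GENCODE M21, spline with 5 degrees of freedom, 11197 genes). The fit was tested on simulated data. Replicate numbers were not treated as pairs. Alternatives were another pseudocount, no filter, quantile and median-of-ratios scaling, GC correction, a block, the other control and each library left out.

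The 10 genes, the 7 gene lists and the tests were chosen with earlier results of these data known. All 10 genes are named, with up to 4 called genes of smallest p per list and comparison, and the 3 nearest profiles; some genes that this rule names are not reported here. Coordinates and promoter windows are those of RefSeq on GRCm38.p6, the assembly of mm10.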

Additional observations from a re-analysis of the deposited data

How the results depend on the processing

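With values as deposited, 8452 genes were called in 8276OV against 5NC, 4477 in 8276KD against 3NC and 6414 in 5NC against 3NC. Replicate numbers did not pair the libraries of an arm with those of its control: deviations of same-numbered libraries from their group means, across genes, correlated at -0.151, -0.183 and -0.028 for 8276OV and 5NC and at -0.005, -0.181 and -0.153 for 8276KD and 3NC. Between 8276OV and 8276KD they correlated at 0.467 and 0.590 for the first and second libraries and at 0.029 for the third, so these libraries deviated together in part, and whether they share a batch is not given in the labels. A fit with the replicate number as a block called 8407, 4434 and 6380 genes and changed no count of the 10 genes. Of 8276OV against 5NC, the count of genes lower among the 10 was 0 after GC correction, with or without the block, and 2 with 3NC or both viruses as control. For 8276KD it was 0 with 5NC or both viruses as control and ranged from 1 to 2 when each library was left out in turn. For the difference between the effects it was 1 after quantile normalization and 0 to 1 over left-out libraries. Directions changed as follows, in log2 fold changes. S100a1 in 8276OV was 0.038 after quantile normalization, 0.039 after median-of-ratios scaling, 0.30 after GC correction and -0.12 to 0.028 over left-out libraries. Anxa5 in 8276KD was 0.0037 after median-of-ratios scaling, 0.0055 after GC correction, 0.33 against 5NC, 0.17 against both and -0.012 to 0.010 over left-out libraries. Against 5NC, Anxa3 in 8276KD was -0.066 and Anxa6 was 0.13. S100a11 in 5NC against 3NC was 0.068 after quantile normalization. The difference between the effects was 0.040 for S100a1 after GC correction. For S100a11 it was 0.033 after median-of-ratios scaling and -0.10 to 0.0057 over left-out libraries. For Anxa3 it was -0.046 after quantile normalization, -0.055 after GC correction and -0.015 to 0.037 over left-out libraries. For Anxa6 it was 0.026, 0.023 and 0.25 after quantile normalization, median-of-ratios scaling and GC correction, and -0.13 to 0.011 over left-out libraries. GC-corrected values were the same with the block, and the cause of these changes was not tested. S100a4, S100a6, S100a10 and Anxa1 were called higher in both arms whichever of the 12 libraries was left out. Depth limits S100a1 most, at an implied 170 to 390 fragments per library, and 3 libraries a group limit every test.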

Other observations

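Calcium sensors outside the S100 family were read beside them. Of 18 other EF-hand proteins, all tested, 11 rose and 5 fell in 8276OV against 5NC, with a median log2 fold change of 0.29. Of all genes tested, 30.3% rose and 44.1% fell there. In 8276KD against 3NC, 6 rose and 0 fell by limma, with a median of 0.13 (8 higher and 1 lower at an unadjusted p under 0.05). Of all genes tested, 20.0% rose and 19.5% fell in that comparison. The medians of all genes tested were -0.088 and -0.0048. The penta-EF-hand genes Gca (0.63 ± 0.073, limma adjusted p = 2.19e-05) and Sri (0.26 ± 0.040, limma adjusted p = 2.06e-04) rose in 8276KD. Against 5NC, their log2 fold changes in 8276KD were 0.34 for Gca and 0.051 for Sri (limma adjusted p = 0.00138 and 0.291). The centriole gene Cetn2 rose by 0.70 ± 0.065 in 8276OV (limma adjusted p = 9.39e-07), and Efhd2, an actin-binding EF-hand gene, fell by 0.70 ± 0.065 on the log2 scale (limma adjusted p = 9.14e-07).

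Genes of plasma membrane repair, in which several annexins act, were read next. Of 15 tested, 4 rose and 9 fell in 8276OV, where 30.3% and 44.1% of all genes did, and 5 rose and 1 fell in 8276KD, where 20.0% and 19.5% did. Ehd1, a membrane-shaping ATPase, averaged 33.9 ± 4.7 FPKM in 8276OV and 57.1 ± 0.41 in 5NC, and 75.8 ± 7.2 in 8276KD and 60.1 ± 2.3 in 3NC, so it was lower in 1 arm and higher in the other (limma adjusted p = 4.22e-06 and 0.00788). Its relative Ehd2 rose by 0.79 ± 0.065 in 8276KD (limma adjusted p = 9.89e-07). Ehd2 was also higher in 5NC than in 3NC, by 0.64 (limma adjusted p = 1.86e-06). Against 5NC, 8276KD had a log2 fold change of 0.15 (limma adjusted p = 0.0623). Cav1, the main caveolar coat protein, rose in both arms, by 0.58 ± 0.057 and 0.22 ± 0.057 (limma adjusted p = 1.39e-06 and 0.00705). Against 5NC, Cav1 in 8276KD had a log2 fold change of 0.086 (limma adjusted p = 0.216). Capn1, a calcium-activated protease, fell by 0.69 ± 0.081 on the log2 scale in 8276OV (limma adjusted p = 5.76e-06). The ferlin gene Dysf and Trim72, known from muscle membrane repair, reached at most 0.15 and 0.13 FPKM.

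Within the manipulated groups, the second libraries of 8276OV and of 8276KD had the lowest S100a4, S100a6, Anxa1 and Anxa3 and the highest S100a11, S100a1 and Anxa6 of their groups. The implied depth of these libraries was 12.1 and 11.7 M fragments, within the range of the others.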
